A study of Xenopus laevis with 14 samples.

Results

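The aryl hydrocarbon receptor gene *ahr* and its relatives of the bHLH-PAS family were followed in the brains of *Xenopus laevis* tadpoles at stage 47. The members were taken by symbol, as every row of the count table whose name without the homeolog suffix is *ahr*, *ahrr*, *arnt*, *arnt2*, *hif1a*, *epas1*, *npas1*, *npas3*, *npas4* or *sim1*. *X. laevis* is an allotetraploid, so most genes exist as an L and an S copy (homeologs) on separate chromosomes. The table held 17 such copies among 26807 genes. They covered 9 of the 10 symbols, because *npas1* had no row, and *ahrr* was present as the L copy alone. The family was chosen on the fall of both *ahr* copies in the CRISPants against controls. For *ahr* those differences are therefore given as a description with no test, and the question asked of the other members was whether partners and relatives of *ahr* moved with it.

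Whole-brain RNA was sequenced in 14 libraries, each from 6 pooled brains of tadpoles raised from the eggs of 2 females. Every embryo had been injected with Cas9 protein bound to a guide RNA. The 5 control libraries came from animals given a scrambled guide with no target, 4 from animals given a guide to *ap3b2* (the S copy, which encodes a subunit of the neuronal AP-3 adaptor complex) and 5 from animals given a guide to *eef1a2* (a neuronal translation elongation factor). Both CRISPant groups were mosaic F0 animals, meaning that edited and unedited cells were mixed within each brain, and single animals within a pool cannot be separated. Nothing in the labels says that libraries of the same replicate number share a clutch or a day, and p-values measure the spread between these pools.

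In this family 2 proteins pair through a basic helix-loop-helix and PAS domains to bind DNA. AHR binds small ligands such as dioxins and tryptophan metabolites, moves to the nucleus and pairs with ARNT, and AHRR competes with it. HIF1A and EPAS1 (HIF-2α) also pair with ARNT or ARNT2 and carry the response to low oxygen. NPAS4 is switched on by neuronal activity, SIM1 is required with ARNT2 for neuroendocrine neurons of the mammalian hypothalamus, and NPAS3 is found in progenitors, interneurons and glia of the mammalian brain.

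Between 36563581 and 46745977 read pairs per library were counted on genes. Levels are given as CPM, the count of a gene scaled to a common library size with TMM factors. A copy was called when it passed an adjusted p (FDR) of 0.05 and a fold change above 2 in edgeR's quasi-likelihood test over all genes. "Rose" and "fell" mark an adjusted p below 0.05 at any fold. The RNA of the targeted copies did not pass the test in either group. *ap3b2.S* lay between 61.9 and 80.2 CPM in *ap3b2* CRISPants and between 70.2 and 74.8 CPM in controls (adjusted p = 0.442), while its homeolog *ap3b2.L* fell, with 64.4 to 113.9 CPM against 117.0 to 131.2 CPM in controls (adjusted p = 0.0069). *ap3b2.L* also fell in *eef1a2* CRISPants, with 54.8 to 107.1 CPM (adjusted p = 0.0119), so its fall was not particular to the *ap3b2* guide. *eef1a2.L* ranged from 123.4 to 172.2 CPM in *eef1a2* CRISPants and from 137.5 to 158.1 CPM in controls, and *eef1a2.S* from 368.7 to 438.2 CPM against 372.0 to 443.7 CPM. Transcript level thus gave no check of the labels.

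*ahr.L* lies on chromosome 6L at 38227646 to 38318704 and *ahr.S* on 6S at 30226139 to 30303942 of the v10.1 assembly. The level of *ahr.L* in control libraries 1 to 5 was 4.42, 4.87, 6.88, 3.39 and 6.93 CPM. In *ap3b2* CRISPant libraries 1 to 4 it was 0.94, 1.78, 1.06 and 2.87 CPM, and in *eef1a2* CRISPant libraries 1 to 5 it was 0.77, 3.33, 0.31, 2.48 and 2.79 CPM. Every CRISPant library lay below the lowest control, and library 3 of the *eef1a2* group was the lowest, with 12 counts. *ahr.S* stood at 4.70, 5.48, 5.61, 3.18 and 4.43 CPM in controls. It stood at 1.096, 1.65, 1.57 and 2.58 CPM in *ap3b2* CRISPants and at 0.99, 3.12, 0.72, 1.47 and 1.69 CPM in *eef1a2* CRISPants. These groups did not overlap either, although library 2 of the *eef1a2* group (3.12 CPM) came close to control library 4 (3.18 CPM). In mean level, *ap3b2* CRISPants held 31.4% of the control level for *ahr.L* and 36.8% for *ahr.S*. *eef1a2* CRISPants held 36.6% and 34.1%. The log2 differences that led to the choice were -1.67 and -1.44 (L and S) in *ap3b2* CRISPants and -1.45 and -1.55 in *eef1a2* CRISPants. In bulk tissue, fewer cells of a type and less RNA per cell cannot be told apart for any of these levels.

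**Figure D1:**
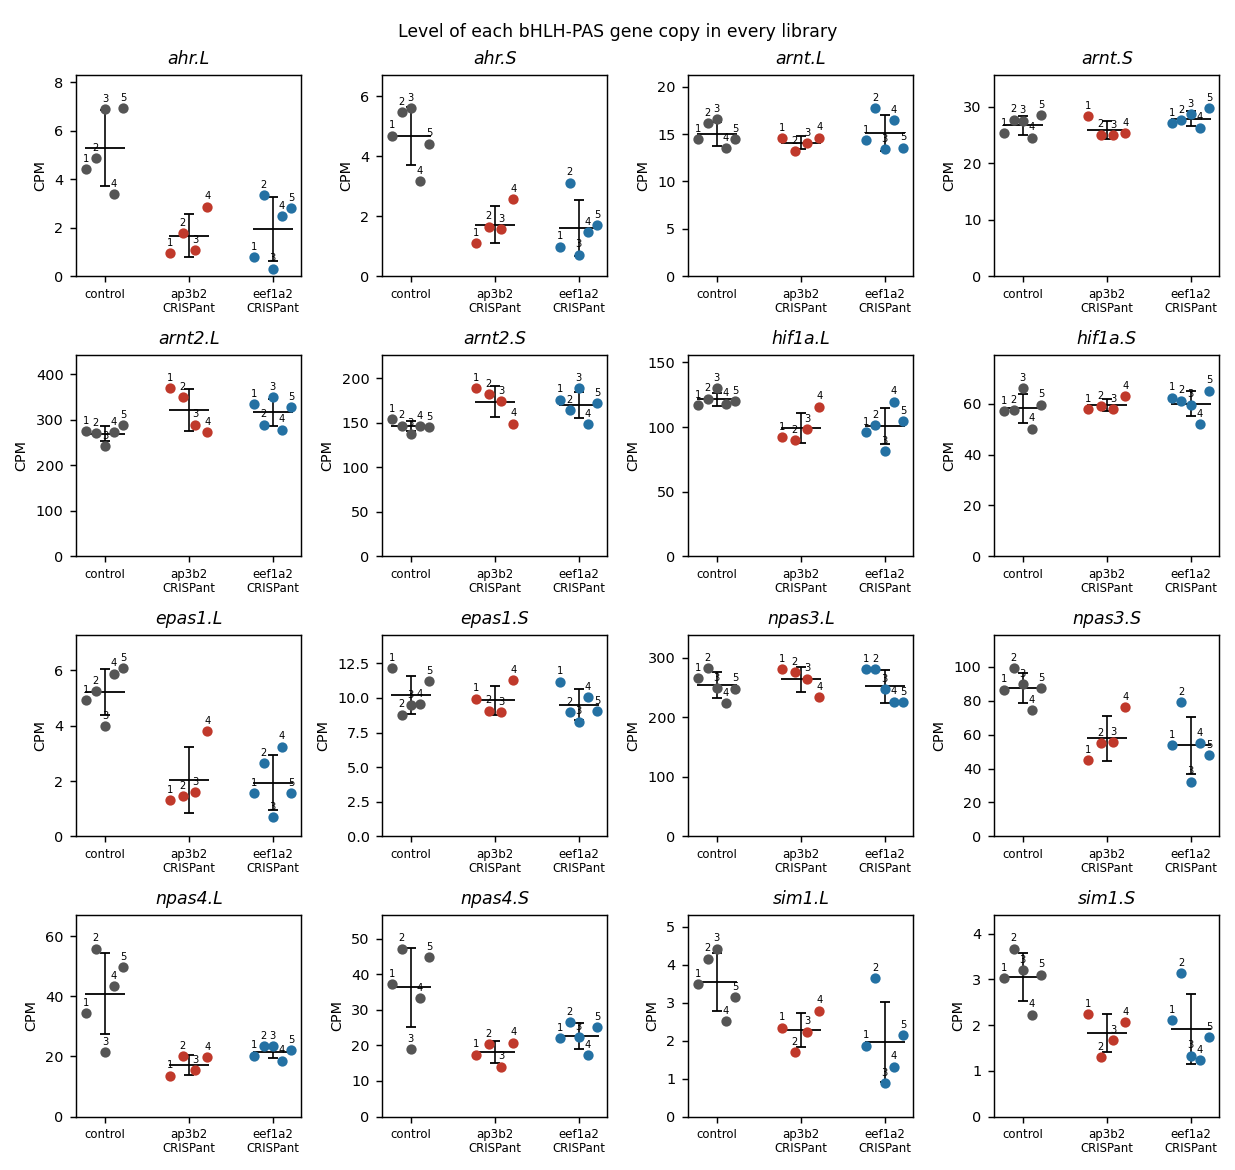
CPM (vertical axes from 0) of the 16 bHLH-PAS copies that passed the filter on low counts, in each library of the control, *ap3b2* CRISPant and *eef1a2* CRISPant groups; points carry the replicate number, and black bars show the group mean and SD. The panels of *ahr.L*, *ahr.S* and *epas1.L* show every CRISPant library below every control, whereas *arnt.L*, *arnt.S*, *hif1a.S*, *epas1.S* and *npas3.L* overlap between groups.

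Of the other members, a single copy of the oxygen-responsive factor *epas1* fell furthest in both CRISPant groups, and both copies of the activity-induced factor *npas4* came next in *ap3b2* CRISPants. In *ap3b2* CRISPants 3 of the 14 other copies tested were called lower, namely *epas1.L*, *npas4.L* and *npas4.S*, beside 5.11% of all 20800 genes tested. None was called higher, beside 0.0769% of all genes. At any fold, 7 of the 14 fell, beside 22.8% of all genes, and 1 rose, beside 20%. All *ap3b2* libraries lay below all controls for 3 of the 14 (*epas1.L*, *hif1a.L* and *npas4.L*), beside 14.4% of all genes. The median log2 fold change of the 14 copies was -0.20, against 0.03 over all genes. In *eef1a2* CRISPants 1 of the 14 was called lower, *epas1.L*. That share is near the background of 5.24% of 20682 genes. None was called higher, beside 0.0870% of all genes. At any fold, 7 fell beside 21.4% of all genes, and 2 rose beside 18.8%. Without overlap, 1 of the 14 (*epas1.L*) lay below the controls, beside 10% of all genes, so that this share was also near the background. The median over the 14 copies was -0.20, against 0.03 over all genes. Both comparisons use the same 5 control libraries, so their values are set side by side and are not independent. Since the members were picked with results of these libraries known, nothing about the family as a whole is read from these counts.

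**Figure D2:**
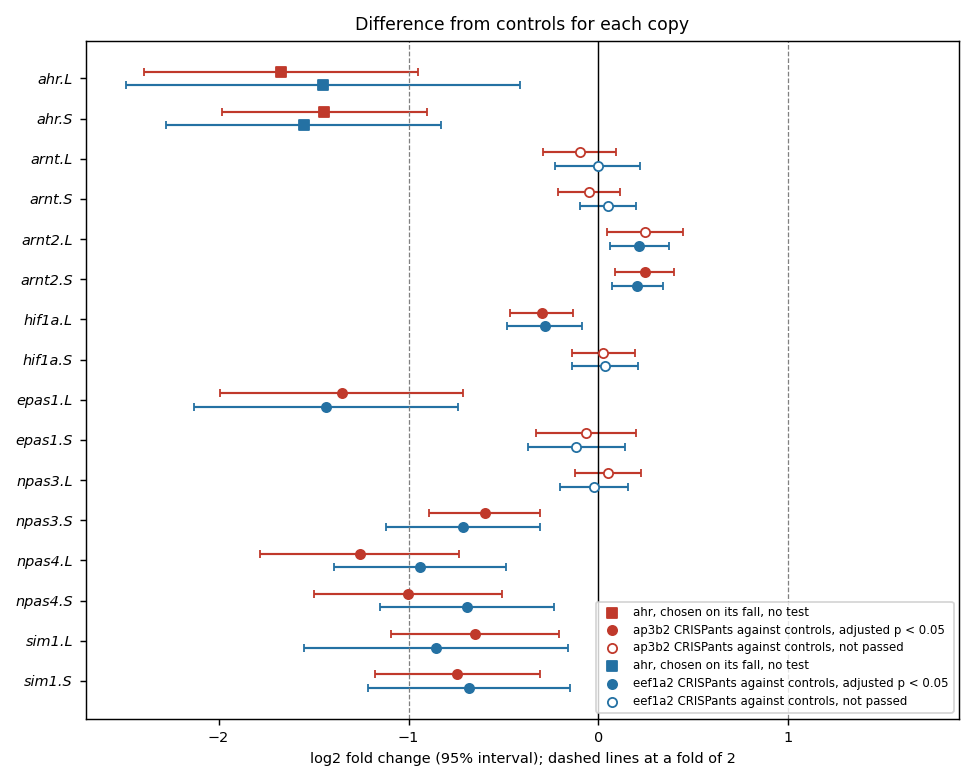
Log2 fold change against controls (horizontal axis, bars are 95% intervals from edgeR's fit) for the 16 copies that passed the filter on low counts, in *ap3b2* CRISPants (red) and *eef1a2* CRISPants (blue). The bars of *ahr*, which was chosen on its fall, are not to be read as a test against 0. Filled circles passed an adjusted p of 0.05, open circles did not, and squares mark *ahr*, for which no test is given; *epas1.L* is the furthest from 0 of the tested copies, at -1.35 and -1.43, and *arnt2.S* lies above 0 in both groups.

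The dimerisation partners of AHR did not follow it downwards. *arnt*, the general partner of AHR and the HIF proteins, lies on chromosomes 8L (117604541 to 117641290) and 8S (94877079 to 94918636). *arnt.L* stood at 15.04 ± 1.27 CPM (SD, n = 5) in controls, 14.1 ± 0.64 CPM (n = 4) in *ap3b2* CRISPants and 15.1 ± 1.92 CPM (n = 5) in *eef1a2* CRISPants. Its log2 fold changes were -0.10 (95% interval -0.29 to 0.09, adjusted p = 0.382) and -0.00 (-0.23 to 0.22, adjusted p = 0.974). *arnt.S* stood at 26.7 ± 1.71, 25.9 ± 1.60 and 27.9 ± 1.34 CPM in the same order. Its log2 fold changes were -0.05 (-0.21 to 0.11, adjusted p = 0.611) and 0.05 (-0.10 to 0.20, adjusted p = 0.569). No interval of either copy reached a fall of 0.3 on the log2 scale.

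*arnt2*, the partner that prevails in neurons, was slightly higher. *arnt2.S* was measured at 154.0, 146.5, 137.6, 145.9 and 145.2 CPM in control libraries 1 to 5. In *ap3b2* CRISPant libraries 1 to 4 it was at 188.5, 181.7, 174.1 and 148.8 CPM, and in *eef1a2* CRISPant libraries 1 to 5 at 175.7, 164.1, 188.5, 147.9 and 172.1 CPM. Library 4 of each CRISPant group lay within the control range and the others above it. *arnt2.S* rose by 0.24 on the log2 scale (SE 0.07, adjusted p = 0.0179) in *ap3b2* CRISPants and by 0.20 (SE 0.06, adjusted p = 0.0217) in *eef1a2* CRISPants. *arnt2.L* (chromosome 3L, 114740564 to 114786063) stood at 269.5 ± 17.02 CPM in controls, 320.3 ± 46.2 CPM in *ap3b2* CRISPants and 315.8 ± 30.7 CPM in *eef1a2* CRISPants. It rose by 0.22 (SE 0.07, adjusted p = 0.0319) in *eef1a2* CRISPants and differed by 0.24 (SE 0.09, adjusted p = 0.0501) in *ap3b2* CRISPants. These calls sat at the threshold. That of *arnt2.S* was lost without *ap3b2* library 1 or 2 (adjusted p up to 0.0625), and without control library 3 or *eef1a2* library 3 (up to 0.0554). The *eef1a2* call of *arnt2.L* was lost without any of 6 single libraries, control 1, 2 or 3 and *eef1a2* 1, 3 or 5 (up to 0.0752). The *ap3b2* value of *arnt2.L* passed in 8 of 20 alternative settings and did not in the other 12. It passed without *ap3b2* library 3 or 4, with replicates 1 to 3 alone (adjusted p = 0.0066) and with the trend with gene span removed (0.35, adjusted p = 0.0173). When libraries were scaled by size alone, neither *arnt2* copy passed in *eef1a2* CRISPants.

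*ahrr*, the repressor that AHR itself induces, was barely detected. *ahrr.L* (chromosome 6L, 73561797 to 73742286) had 2 to 10 counts in a library, or 0.05 to 0.24 CPM, and was removed by the filter on low counts. In the fit with no filter its log2 fold change was 0.05 (SE 0.42, adjusted p = 0.938) in *ap3b2* CRISPants and -0.49 (SE 0.39, adjusted p = 0.357) in *eef1a2* CRISPants. A change of a few counts in this gene was not detectable at this depth.

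Among the oxygen-responsive factors, the L copies fell and the S copies did not pass the test. *epas1.L* (chromosome 5L, 6739052 to 6821415) stood at 4.93, 5.26, 3.97, 5.88 and 6.07 CPM in control libraries 1 to 5. It stood at 1.30, 1.46, 1.59 and 3.81 CPM in *ap3b2* CRISPants and at 1.57, 2.64, 0.69, 3.24 and 1.55 CPM in *eef1a2* CRISPants. No CRISPant library reached the lowest control, and *ap3b2* library 4 was the nearest to it. The fall was 2.55-fold in *ap3b2* CRISPants (log2 fold change -1.35, SE 0.29, adjusted p = 0.0051) and 2.70-fold in *eef1a2* CRISPants (-1.43, SE 0.32, adjusted p = 0.0090). With *ap3b2* library 4 left out, *epas1.L* lay 1.85 lower on the log2 scale, the far end of a range of -1.85 to -1.18 over single libraries left out. In *eef1a2* CRISPants that range was -1.70 to -1.22, and with replicates 1 to 3 alone the value was -1.54 with an adjusted p of 0.0531. *epas1.S* (chromosome 5S, 21837205 to 21912034) stood at 10.2 ± 1.39 CPM in controls, 9.82 ± 1.07 CPM in *ap3b2* CRISPants and 9.52 ± 1.12 CPM in *eef1a2* CRISPants. Its log2 fold changes of -0.06 (95% interval -0.33 to 0.20, adjusted p = 0.689) and -0.12 (-0.37 to 0.14, adjusted p = 0.443) did not pass. With the L and S counts added, *epas1* fell by 0.40 (adjusted p = 0.0279) and by 0.45 (adjusted p = 0.0142) on the log2 scale.

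*hif1a.L* (chromosome 8L, 93260738 to 93298830) was the more abundant copy of its pair and moved much less. Its levels in controls ran from 117.2 to 129.96 CPM (median 120.1). They were 92.1, 90.1, 98.3 and 115.9 CPM in *ap3b2* CRISPants, all below the controls, and 96.3, 101.5, 81.2, 119.7 and 104.6 CPM in *eef1a2* CRISPants, where library 4 lay among the controls. *hif1a.L* fell by 0.30 on the log2 scale (SE 0.08, adjusted p = 0.0097) in *ap3b2* CRISPants and by 0.28 (SE 0.09, adjusted p = 0.0289) in *eef1a2* CRISPants. The latter was lost without control library 2 or 3 or *eef1a2* library 1 (adjusted p up to 0.0675), and when the trend with gene span was removed (-0.22, adjusted p = 0.0598). *hif1a.S* stood at 58.1 ± 5.69, 59.5 ± 2.42 and 60.1 ± 4.98 CPM in controls, *ap3b2* and *eef1a2* CRISPants. Its log2 fold changes were 0.03 (95% interval -0.14 to 0.19, adjusted p = 0.802) and 0.03 (-0.14 to 0.21, adjusted p = 0.755).

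EPAS1 is abundant in endothelial cells of mammals, so the endothelial markers were read beside it. Of 29 endothelial copies tested, 13 fell in *ap3b2* CRISPants and 7 of these were called, with none higher and a median log2 fold change of -0.31. Over all genes 22.8% fell and 5.11% were called lower. Of 25 tested in *eef1a2* CRISPants, 10 fell and 5 of these were called, with a median of -0.22, beside 21.4% and 5.24% of all genes. *kdrl.L*, a VEGF receptor of blood vessels, fell by 1.70 and by 2.21 on the log2 scale (adjusted p = 0.0055 and 0.0078), and *cdh5.S*, the VE-cadherin of endothelial junctions, by 1.47 and by 1.61 (adjusted p = 0.0107 and 0.0078). The summed level of the 33 endothelial copies in the table was 282.6 to 353.1 CPM in controls (mean 317.4). It was 243.9 to 338.2 CPM in *ap3b2* CRISPants (mean 271.2) and 239.5 to 353.3 CPM in *eef1a2* CRISPants (mean 271.9). These ranges overlapped through library 4 of each CRISPant group, at 338.2 and 353.3 CPM. All other CRISPant libraries lay below the lowest control. The largest parts of this sum came from *robo4.S*, *cldn5.L* and *robo4.L*, with mean control levels of 57.9, 50.6 and 50.2 CPM. *kdrl.L* and *cdh5.S* gave 9.72 and 4.85 CPM, so the sum hardly reflects them. None of the 33 stayed below 1 CPM in every library. The part of endothelial RNA in the level of *epas1.L* or *ahr* was not tested.

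*npas4*, an immediate early transcription factor of neurons, lay at lower levels in both CRISPant groups, against controls that varied widely. *npas4.L* (chromosome 4L, 29544084 to 29548499) stood at 34.4, 55.9, 21.4, 43.4 and 49.6 CPM in control libraries 1 to 5. It stood at 13.6, 20.1, 15.3 and 19.7 CPM in *ap3b2* CRISPants and at 20.3, 23.41, 23.35, 18.6 and 21.998 CPM in *eef1a2* CRISPants. Control library 3 was near the CRISPant level, and the *eef1a2* group overlapped it. *npas4.L* fell 2.39-fold (log2 fold change -1.26, SE 0.24, adjusted p = 0.0034) in *ap3b2* CRISPants and 1.92-fold (-0.94, SE 0.21, adjusted p = 0.0090) in *eef1a2* CRISPants. *npas4.S* stood at 37.1, 47.2, 19.0, 33.2 and 44.8 CPM in controls. It stood at 17.4, 20.4, 14.1 and 20.8 CPM in *ap3b2* CRISPants and at 22.1, 26.6, 22.4, 17.3 and 25.1 CPM in *eef1a2* CRISPants. Again control library 3 lay among the CRISPants. *npas4.S* fell 2.00-fold (-1.003, SE 0.23, adjusted p = 0.0059) and 1.61-fold (-0.69, SE 0.21, adjusted p = 0.0233). In *ap3b2* CRISPants the *npas4.S* fold lay at the threshold of 2, with log2 values of -1.16 to -0.89 when single libraries were left out. In *eef1a2* CRISPants the call of *npas4.S* at any fold was lost without control library 2 or 5 or *eef1a2* library 1 (adjusted p up to 0.0638). With replicates 1 to 3 alone neither copy passed in that group (adjusted p = 0.112 for L and 0.189 for S). No labels give the handling of the animals before dissection, and its part in the spread of the controls was not tested.

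Among the other activity-induced genes, more copies fell than rose in each group. Of 22 copies tested, 8 fell and 2 rose in *ap3b2* CRISPants (median log2 fold change -0.55), and 4 fell and 2 rose in *eef1a2* CRISPants (median -0.41). Beside the 22.8% and 21.4% of all genes that fell, the count in *eef1a2* CRISPants was near the background. Over all genes 20% and 18.8% rose, 5.11% and 5.24% were called lower, and 0.0769% and 0.0870% were called higher. *egr1* and *egr4*, zinc finger factors induced within minutes of stimulation, were called lower in both copies in *ap3b2* CRISPants. *egr1.L* fell by 1.42 (adjusted p = 0.0031), *egr1.S* by 1.28 (adjusted p = 0.0043), *egr4.L* by 1.48 (adjusted p = 0.0129) and *egr4.S* by 1.55 (adjusted p = 0.0151) on the log2 scale. In *eef1a2* CRISPants *egr1.L* fell by 0.82 (adjusted p = 0.0405), while *egr1.S* at -0.72, *egr4.L* at -0.91 and *egr4.S* at -1.09 did not pass (adjusted p = 0.0719, 0.103 and 0.0798). *nptx2.S*, a pentraxin of excitatory synapses, fell by 0.96 and by 1.02 (adjusted p = 0.0030 and 0.0103). *fosb.L*, an AP-1 subunit, went the other way and was called higher at 1.25 and 1.37 (adjusted p = 0.0234 and 0.0170).

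*npas3.S* fell, and its homeolog did not pass the test. *npas3.S* (chromosome 8S, 87787333 to 88121729) stood at 86.5, 99.0, 89.6, 74.4 and 87.4 CPM in controls. It stood at 44.8, 55.1, 55.4 and 76.3 CPM in *ap3b2* CRISPants and at 54.0, 79.2, 32.2, 55.0 and 47.9 CPM in *eef1a2* CRISPants. *ap3b2* library 4 and *eef1a2* library 2 lay above the lowest control, and the other CRISPant libraries below all controls. *npas3.S* fell by 0.60 on the log2 scale (SE 0.13, adjusted p = 0.0056) in *ap3b2* CRISPants and by 0.71 (SE 0.19, adjusted p = 0.0132) in *eef1a2* CRISPants. The latter did not pass with replicates 1 to 3 alone (adjusted p = 0.0943). *npas3.L* (chromosome 8L, 106281381 to 106576502), the more abundant copy, stood at 253.7 ± 21.9, 263.6 ± 21.0 and 251.9 ± 27.7 CPM. Its log2 fold changes were 0.05 (95% interval -0.12 to 0.22, adjusted p = 0.636) and -0.02 (-0.20 to 0.16, adjusted p = 0.841). Added together, the copies of *npas3* differed by -0.11 (adjusted p = 0.228) and -0.18 (adjusted p = 0.144).

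*sim1*, a factor of the hypothalamus, fell in both copies at low counts. *sim1.L* (chromosome 5L, 85220873 to 85277058) stood at 3.50, 4.16, 4.43, 2.51 and 3.15 CPM in controls. It stood at 2.35, 1.70, 2.24 and 2.79 CPM in *ap3b2* CRISPants and at 1.87, 3.64, 0.87, 1.32 and 2.15 CPM in *eef1a2* CRISPants. The groups overlapped in both comparisons. *sim1.L* fell by 0.65 (SE 0.20, adjusted p = 0.0240) in *ap3b2* CRISPants and by 0.86 (SE 0.32, adjusted p = 0.0497) in *eef1a2* CRISPants. *sim1.S* (chromosome 5S, 68698440 to 68762369) stood at 3.05 ± 0.52 CPM in controls, 1.82 ± 0.42 CPM in *ap3b2* CRISPants and 1.91 ± 0.77 CPM in *eef1a2* CRISPants. It fell by 0.74 (SE 0.20, adjusted p = 0.0121) and by 0.68 (SE 0.24, adjusted p = 0.0438). In *eef1a2* CRISPants both calls were lost when any of 8 of the 10 libraries was left out, all except control library 4 and *eef1a2* library 2 (adjusted p up to 0.110 for L and 0.104 for S). In *ap3b2* CRISPants the call of *sim1.L* was lost without control library 2 or 3 or *ap3b2* library 1, 2 or 3 (adjusted p up to 0.0780).

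Across the 9 copies that lay lower in both CRISPant groups (*ahr*, *npas4* and *sim1* in both copies, *epas1.L*, *hif1a.L* and *npas3.S*), the same libraries tended to stand highest. Library 4 was the highest of the *ap3b2* group in 7 of the 9, and library 2 was the highest of the *eef1a2* group in 7 of the 9. The share of all genes, or of all genes called lower, that stood highest in these libraries was not counted. The 9 copies were picked for lying lower, so this is not read as a trait of the family. Over all genes, leaving out *ap3b2* library 4 raised the number called lower from 1063 to 1791, and leaving out *eef1a2* library 2 raised it from 1083 to 1716.

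The split between homeologs was examined within libraries, where no scaling between libraries is needed. The L copy of *epas1* gave 33.8% of the counts of its pair in controls (28.9% to 38.1%, n = 5), 16.4% in *ap3b2* CRISPants (11.6% to 25.2%, n = 4) and 16.3% in *eef1a2* CRISPants (7.71% to 24.3%, n = 5), without overlap with controls. For *npas3* the share of the L copy went from 74.4% in controls (73.5% to 75.4%) to 81.9% (75.4% to 86.2%) and 82.6% (78.0% to 88.4%). For *hif1a* it went from 67.7% (66.3% to 70.2%) to 62.4% (60.4% to 64.8%) and 62.4% (57.7% to 69.7%). *arnt2* kept close shares of 64.9%, 64.8% and 65.0%. The *ahr* pair stood at 52.7%, 47.8% and 50.1%, with single libraries from 30% to 62.8%. An exact permutation test of the log2 L to S ratio covered the 5 pairs with at least 50 counts in each copy of every library, in 15 tests. None passed after Benjamini-Hochberg adjustment, and 5 had an exact p below 0.05 before it. The smallest p that the exact test allows here is 0.0079, reached by *hif1a* in *ap3b2* CRISPants (ratio lower by 0.34, adjusted p = 0.0595) and *npas3* in *eef1a2* CRISPants (higher by 0.74, adjusted p = 0.0595). With a minimum of 10 counts, chosen after the data had been seen, 22 tests were made and 4 passed, each with an adjusted p of 0.0437. These were the ratios of *epas1* in both CRISPant groups (lower by 1.42 and by 1.49), of *hif1a* in *ap3b2* CRISPants and of *npas3* in *eef1a2* CRISPants. All 4 stood at the smallest exact p of 0.0079. *hif1a* and *npas3* had that same exact p among the 15 tests and passed here because a larger share of the tests reached it. For these 2 pairs the pass thus adds nothing to the 15 tests. Reads of near-identical homeologs can be assigned to the wrong copy or dropped in counting, and its part in these shares was not tested.

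**Figure D3:**
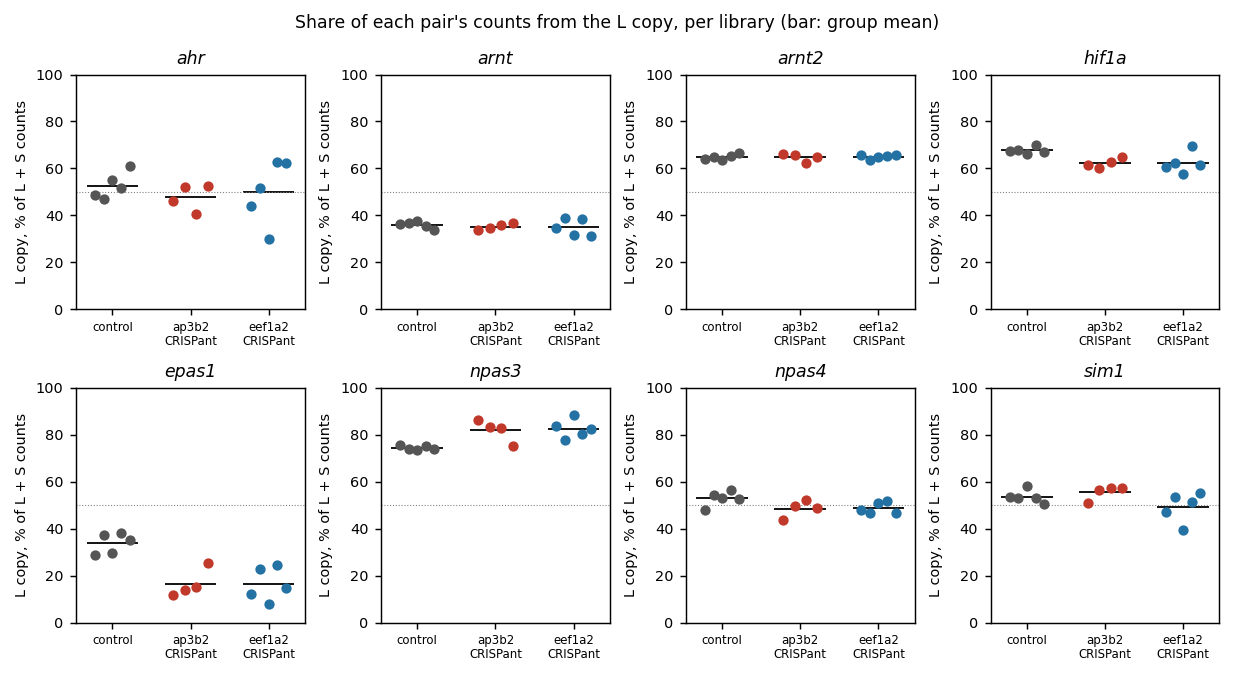
Share of the counts of each homeolog pair that came from the L copy (vertical axis, percent, 0 to 100) in each library, by group; horizontal bars are group means and the dotted line marks 50%. In the *epas1* panel the CRISPant libraries, at 7.71% to 25.2%, lie below the controls at 28.9% to 38.1%, and in the *arnt2* panel the groups lie on top of each other.

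The 2 CRISPant groups were not told apart in this family. Between *ap3b2* and *eef1a2* CRISPants, edgeR called 0 of 16 copies, beside 0% of 20584 genes both with and without the fold threshold, and DESeq2 also called 0. At an unadjusted p below 0.05 the test held 1 copy, *npas4.L* (log2 fold change -0.33, SE 0.13), beside 0.870% of all genes. That share is well under the fraction of 0.05 that a calibrated test gives without any difference. The test was thus conservative here, and its lack of calls says little. This comparison had no part in the choice of *ahr*, which differed by -0.22 for L (95% interval -1.52 to 1.08) and 0.10 for S (-0.78 to 0.99). For *epas1.L* the difference was 0.07 (-0.91 to 1.06). These intervals span more than a 1.5-fold difference in either direction, so the groups are not shown to be alike. In order of level, controls stood first for both *ahr* copies, and the neighbouring CRISPant groups did not differ beyond their spread.

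**Figure D4:**
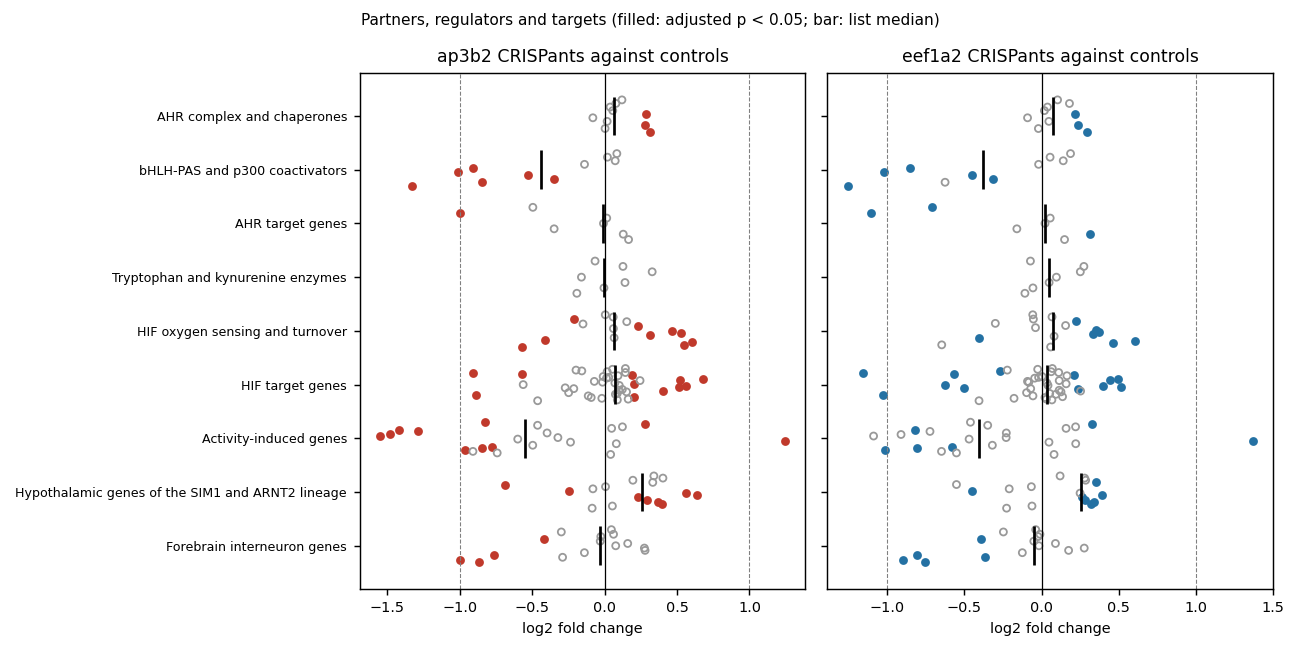
Log2 fold change against controls (horizontal axis) of each tested copy in 9 lists of partners, regulators and targets of the bHLH-PAS factors, in *ap3b2* CRISPants (left) and *eef1a2* CRISPants (right); filled points passed an adjusted p of 0.05 and black bars are list medians. The coactivators reach the lowest medians beside the activity-induced genes (-0.44 and -0.38), while the AHR target genes centre near 0 (-0.01 and 0.02).

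The lists of partners and targets are read beside the shares of all genes. In *ap3b2* CRISPants 22.8% of all genes fell, 20% rose and 5.11% were called lower. In *eef1a2* CRISPants 21.4% fell, 18.8% rose and 5.24% were called lower.

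Of the proteins that hold AHR in the cytoplasm or carry it into or out of the nucleus, none fell. Among 10 copies of the chaperone and transport list, 3 rose in each CRISPant group and the medians were 0.07 and 0.08. These were *ptges3.S* (the p23 co-chaperone, 0.28 and 0.23, adjusted p = 0.0066 and 0.0131), the exportin *xpo1.S* (0.31 and 0.30, adjusted p = 0.0044 and 0.0197) and the importin *kpna1.L* (0.29 and 0.22, adjusted p = 0.0128 and 0.0265). The co-chaperone *aip.L* stood at 0.12 and 0.10 (adjusted p = 0.0926 and 0.123), and *ptges3.L* at 0.02 and 0.05 (adjusted p = 0.872 and 0.657).

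In the list of coactivators with a bHLH-PAS region of their own and the histone acetyltransferases they recruit, 6 of 10 copies fell in *ap3b2* CRISPants, beside 22.8% of all genes. In *eef1a2* CRISPants 5 of 10 fell, beside 21.4%. In each group 2 were called, beside 5.11% and 5.24%, and none rose. *ncoa3.S* went from 46.6 ± 9.87 CPM in controls to 18.7 ± 6.51 and 19.6 ± 11.5 CPM, a fall of 1.33 (adjusted p = 0.0030) and 1.26 (adjusted p = 0.0140) on the log2 scale. *ncoa1.S* went from 28.0 ± 7.42 CPM to 13.9 ± 2.97 and 13.9 ± 6.90 CPM, a fall of 1.01 (adjusted p = 0.0051) and 1.02 (adjusted p = 0.0230). The members that fell were copies of *ncoa1*, *ncoa2* and *ncoa3*, whereas the 4 copies of *ep300* and *crebbp* did not pass in either group.

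The list of transcripts that AHR induces had medians near 0, while 2 of its copies, *cyp1c1.L* and *cyp1b1.L*, lay lower in both groups. Only 7 of 12 copies passed the filter, and both copies of *cyp1a1*, the classical AHR target, were among those removed. In *ap3b2* CRISPants 1 of the 7 fell, beside 22.8% of all genes, and none rose, beside 20%. *cyp1c1.L*, a related cytochrome P450 of fish and frogs, fell by 1.00 (adjusted p = 0.0491) in *ap3b2* CRISPants and was called at -1.10 (adjusted p = 0.0105) in *eef1a2* CRISPants. *tiparp.L*, which encodes an AHR-induced ADP-ribosyltransferase, stood at 0.13 (adjusted p = 0.243) and rose by 0.31 (adjusted p = 0.0142). *cyp1b1.L* stood at -0.49 (adjusted p = 0.0551) and fell by 0.71 (adjusted p = 0.0329). Of the enzymes that make tryptophan-derived AHR ligands, 7 of 12 copies were tested and in either group none passed by edgeR's test and none had an unadjusted p below 0.05. The medians were -0.00 and 0.05. *tdo2.L* and *ido1.L*, which open that pathway, were removed by the filter with mean levels under 0.3 CPM in every group.

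Genes of oxygen sensing moved both ways, and more copies rose than fell in each group. In *ap3b2* CRISPants 3 of 15 copies fell and 6 rose, and in *eef1a2* CRISPants 1 of 16 fell and 6 rose, with none called, beside 22.8% and 21.4% of all genes that fell and 20% and 18.8% that rose. *rbx1.L* and *elob.L*, subunits of the ubiquitin ligase that destroys HIF proteins, rose by 0.60 and by 0.47 in *ap3b2* CRISPants (adjusted p = 0.0046 and 0.0037) and by 0.60 and by 0.35 in *eef1a2* CRISPants (adjusted p = 0.0078 and 0.0092). *hif1an.S*, the asparagine hydroxylase that blocks HIF activity, fell by 0.41 in each (adjusted p = 0.0124 and 0.0135). The prolyl hydroxylase *egln1.S* fell by 0.21 (adjusted p = 0.0264) in *ap3b2* CRISPants and stood at -0.05 (adjusted p = 0.556) in *eef1a2* CRISPants. *egln2.L*, of the same enzyme family, stood at 0.15 (adjusted p = 0.120) and rose by 0.22 (adjusted p = 0.0235). Any other tested copies of *egln1* and *egln2* are not given here.

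Counts among the HIF targets were at or under those of all genes. Of 41 copies tested, 3 fell and 8 rose in *ap3b2* CRISPants with none called (median 0.07), and 6 fell and 6 rose in *eef1a2* CRISPants with 2 called lower (median 0.03). Of all genes, 22.8% and 21.4% fell and 20% and 18.8% rose. *bnip3l.L*, a mitophagy receptor, fell by 0.91 (adjusted p = 0.0029) and by 1.16 (adjusted p = 0.0125). *pfkfb4.L*, a regulator of glycolysis, fell by 0.89 (adjusted p = 0.0058) and by 1.03 (adjusted p = 0.0087). Both copies of *vegfa*, the main endothelial growth factor, did not pass: *vegfa.L* stood at 0.09 and 0.07 and *vegfa.S* at -0.46 and -0.41 (adjusted p = 0.395, 0.637, 0.0615 and 0.0923).

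Genes of the cells in which the other members act were read in the same way. In the hypothalamic list around SIM1 and ARNT2, 2 of 16 copies fell and 6 rose in *ap3b2* CRISPants, and 1 fell and 6 rose in *eef1a2* CRISPants, with medians of 0.26 in each. *otp.S*, a homeobox factor of the same neuroendocrine lineage, fell by 0.25 (adjusted p = 0.0291) and by 0.45 (adjusted p = 0.0117). *pou3f2.L*, which acts downstream of SIM1 in the mouse, rose by 0.23 (adjusted p = 0.0132) and by 0.26 (adjusted p = 0.0129). Their homeologs, *otp.L* and *pou3f2.S*, were tested too, and their values are not given here. In the forebrain interneuron list 4 of 15 copies fell in *ap3b2* CRISPants and 5 in *eef1a2* CRISPants, beside 22.8% and 21.4% of all genes, and none rose. *dlx2.L* fell by 0.41 (adjusted p = 0.0091) and by 0.39 (adjusted p = 0.0161), while *dlx1.L* stood at 0.06 and -0.01 (adjusted p = 0.739 and 0.954). Any other tested copies of *dlx1* and *dlx2* are not given here. Of 7 tested copies of the clock and *sim2* members of the family, 1 fell in each group, *clock.L*, by 0.58 and by 0.59 (adjusted p = 0.0122 and 0.0151). *clock.S* rose by 0.21 and by 0.23 (adjusted p = 0.0199 and 0.0097). Altogether 3 copies rose in *ap3b2* and 2 in *eef1a2* CRISPants. *npas2.L* was removed by the filter.

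The genes whose level followed that of *ahr* most closely over the 14 libraries came from outside the family. Likeness was taken as the root mean square difference in centred log2 CPM from the mean profile of both *ahr* copies, over 20966 genes with a mean above 1 CPM, and is a description with no test. The nearest were *bmerb1.L* (0.16), *dpf1.L* (0.17), *slc23a2.L* (0.18), *rps6ka5.L* (0.20) and *setbp1.L* (0.21), all of which had higher levels than *ahr*. *bmerb1.L* averaged 10.1002 CPM in controls, 3.48 CPM in *ap3b2* CRISPants and 3.36 CPM in *eef1a2* CRISPants. For scale, each *ahr* copy differed from that mean profile by 0.24 and the copies differed from each other by 0.48. The median gene differed from the mean profile by 1.07. A gene at the same level in all libraries would differ by 1.04, the root mean square of the profile itself. The profile takes in the fall against controls on which *ahr* was chosen, so nearness partly sorts genes by a fall of like size. Within the family *epas1.L* came nearest, at 0.45 and rank 656, and *arnt2.L* was the furthest, at 1.18 and rank 16442. These libraries share groups and depth, and the lowest counts of *ahr* were 12 and 28, so counting error enters every value.

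Gene length went with the response over the genes with a known span, and the *ahr* copies are long. *ahr.L* spans 91059 bases, longer than 88.5% of genes with a known span, and *ahr.S* 77804 bases (85.6%). Among genes with a known span, the median was 56416 bases for the 834 called lower in *ap3b2* CRISPants and 23706 bases for the 17453 tested. The tested genes with a known span were split by span into 10 groups of equal size. Their median log2 fold change in *ap3b2* CRISPants went from 0.24 in the shortest group to -0.22 in the longest, and in *eef1a2* CRISPants from 0.22 to -0.19. Most members that fell are long, with *epas1.L* at 82364 bases, *npas3.S* at 334397 bases, and *sim1.L* and *sim1.S* at 56186 and 63930 bases. *epas1.S* at 74830 bases and *npas3.L* at 295122 bases are also long and did not pass the test, and *npas4.L*, at 4416 bases among the shortest 5.63% of genes, was called lower in *ap3b2* CRISPants. *arnt.L* and *arnt.S*, at 36750 and 41558 bases, are above the median of 23706 bases and did not pass the test either. With the trend removed by an offset, *epas1.L* lay at -1.17 (adjusted p = 0.0086) in *ap3b2* and -1.29 (adjusted p = 0.0105) in *eef1a2* CRISPants, and *npas4.L* at -1.46 (adjusted p = 0.0033) and -1.13 (adjusted p = 0.0085), so that *npas4.L* was then called in both groups. *npas3.S* went from -0.60 to -0.28 (adjusted p = 0.0345) in *ap3b2* CRISPants and from -0.71 to -0.46 (adjusted p = 0.0211) in *eef1a2* CRISPants. In *eef1a2* CRISPants *sim1.L* (-0.75, adjusted p = 0.0621), *sim1.S* (-0.56, adjusted p = 0.0632) and *hif1a.L* (-0.22, adjusted p = 0.0598) no longer passed. *npas3.L* came out higher under that offset, at 0.38 (adjusted p = 0.0065) and 0.25 (adjusted p = 0.0145). Over all alternative settings, this offset among them, *ahr.L* stayed at -1.39 or lower in *ap3b2* and -1.17 or lower in *eef1a2* CRISPants. *ahr.S* stayed at -1.25 or lower and -1.36 or lower. The part of gene length in the levels of these copies was not tested.

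**Figure D5:**
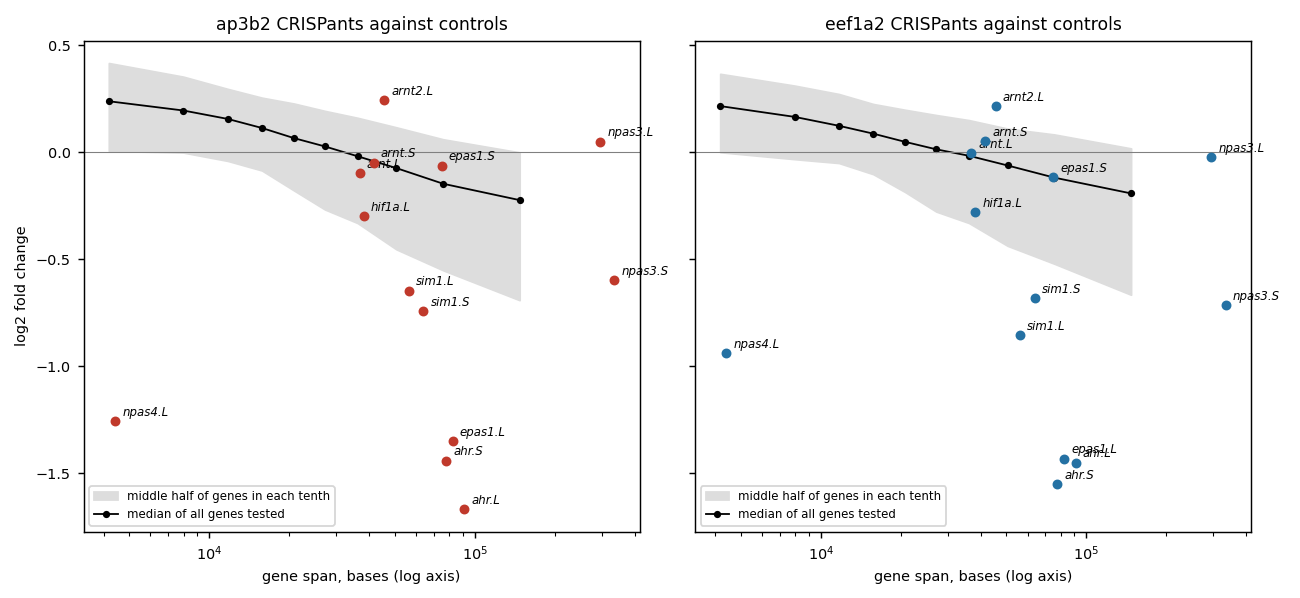
Log2 fold change against controls (vertical axis) by gene span in bases (log axis) in *ap3b2* CRISPants (left) and *eef1a2* CRISPants (right). The black line joins the medians of 10 groups by span of the tested genes with a known span, and grey marks their quartile range. Coloured points are the bHLH-PAS copies with a known span. The *ahr* and *sim1* copies and *epas1.L* lie below the grey band, as does the short *npas4.L*, whereas *arnt2.L* lies above it. The *npas3* copies, at 295122 and 334397 bases, lie beyond the end of the band, at 147107.5 bases (left) and 147195 bases (right).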

How the data were processed

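Brains of *X. laevis* tadpoles at stage 47 gave 14 reverse-stranded mRNA libraries, grouped by the condition in their labels (5 control, 4 *ap3b2* and 5 *eef1a2* CRISPant libraries; the series text gives 5 per condition). The authors aligned reads with STAR to assembly v10.1 and deposited raw featureCounts counts of read pairs for 26807 genes. A second deposited table holds log2 CPM for 21328 genes, which TMM scaling over 14 libraries with a prior count of 2 returned to within 4.99e-09. CPM values printed here use that scaling.

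A gene was removed where at least 4 libraries of a comparison had no more than 1 CPM, and each pair of groups was fitted alone with edgeR 4.0.16 in R 4.3.3 (glmQLFit, glmQLFTest, TMM), with Benjamini-Hochberg adjustment over all genes. The thresholds of the study (FDR 0.05, more than 2-fold) defined a call. Standard errors came from the F statistic and intervals from the t distribution at 95%. The fit was tested on simulated data. L to S ratios (pseudocount 0.5) were compared by 2-sided exact permutation tests. Depth was 36563581 to 46745977 counts per library, and intervals cover the spread between pools.

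The members and gene lists were chosen with earlier results of these data known. All members are named. Genes of the lists (AHR chaperones, coactivators, AHR targets, kynurenine enzymes, oxygen sensing, HIF targets, clock relatives, activity-induced, hypothalamic, interneuron, and cell type markers) were named when called in either CRISPant group, up to 6 a list, or as the first 2 of a list where fewer were called. Of *otp*, *pou3f2*, *dlx1*, *dlx2*, *egln1* and *egln2*, 1 copy each is given, which need not speak for the gene. Further list genes (*xpo1.S*, *kpna1.L*, *tiparp.L*, *cyp1b1.L*, *rbx1.L*, *elob.L*, *hif1an.S*, *vegfa* and the cell type markers) were picked after their values were seen. Positions and spans came from the RefSeq gene table of v10.1 and were known for 14 of the 17 copies. Alternatives were DESeq2 1.42.0, scaling by library size, other filters, all libraries in 1 fit, replicate terms, removal of the span trend, added L and S counts, and single libraries left out. Sequences were not used here.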

Additional observations from a re-analysis of the deposited data

Results flagged for a closer look

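Among 51 groups of 4 or 5 libraries checked for a library far from the rest of its group (each of 17 copies in each of 3 groups), 2 held one, and chance marks about 1 in 20. Library 1 of the *ap3b2* CRISPants stood apart for *arnt.S*, at 28.3 CPM, with the other 3 libraries between 25.0 and 25.3 CPM and the controls between 24.5 and 28.5 CPM. Library 4 of the *ap3b2* CRISPants stood apart for *epas1.L*, at 3.81 CPM, with the others between 1.30 and 1.59 CPM and the lowest control at 3.97 CPM.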

How the results depend on the processing

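Counts below leave out *ahr*. In *ap3b2* CRISPants 3 copies were called. The count was 8 at an FDR below 0.05 with no fold threshold and 1 with L and S counts added (*npas4*), and 2 to 3 with single libraries left out. In *eef1a2* CRISPants 1 copy was called. It was 2 with library size alone, 2 with the gene span trend removed, 2 with that removal and the replicate block together, 0 with replicates 1 to 3 alone, 3 with *eef1a2* library 2 and control library 3 both left out (chosen after seeing the data), 9 with no fold threshold, 0 with L and S counts added, and 1 to 2 with single libraries left out, where control library 3 (adding *npas4.L*) or *eef1a2* library 2 (adding *sim1.L*) gave 2. Between the CRISPant groups it was 0 throughout. L to S ratios past the test numbered 0, 4 with at least 10 counts, and 0 to 3 with single libraries left out, with 3 reached without *eef1a2* library 4. *npas3.L* in *eef1a2* CRISPants turned from -0.02 to 0.25 with the span trend removed, also with the replicate block added (0.25, adjusted p = 0.0209). That combination also lost *npas3.S* (adjusted p = 0.0694), *sim1.L* (0.117) and *sim1.S* (0.101) in *ap3b2* CRISPants. The cause was not tested.

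Same-numbered libraries were not taken as pairs, because not every correlation of their deviations was above 0.1: of 13, 10 were above it and 3 below 0 (range -0.22 to 0.63). The highest, 0.63, was that of *ap3b2* library 4 with *eef1a2* library 4. This rule cannot show that same-numbered libraries share nothing. With the replicate block 2 copies were called in *ap3b2* CRISPants, without *npas4.S* (-0.86, adjusted p = 0.0386), 1 in *eef1a2* CRISPants and 0 between them. Under it *sim1.L* (adjusted p = 0.0852) and *sim1.S* (0.0672) in *ap3b2* and *arnt2.L* (0.0548) in *eef1a2* CRISPants lost their place past the threshold. Over all genes, called-lower counts of 1063 (*ap3b2*) and 1083 (*eef1a2*) became 2195 and 406 with replicates 1 to 3 alone and 4732 and 4425 with no fold threshold. They became 1706 and 1608 with the library pairs left out together, 1791 without *ap3b2* library 4, 1716 without *eef1a2* library 2 and 706 without *eef1a2* library 3. Genes called higher numbered 16 and 18, and 116 and 118 with no filter, 72 and 58 with replicates 1 to 3 alone, 4153 and 3878 with no fold threshold, and 6 to 54 and 13 to 34 with single libraries left out. In *ap3b2* CRISPants they numbered 7 with library size alone and 60 with the library pair left out. *ahr.L* ranged from -2.12 to -1.39 in *ap3b2* and from -1.87 to -1.17 in *eef1a2* CRISPants over all alternatives, and *ahr.S* from -1.90 to -1.25 and from -1.94 to -1.36. Depth limits *ahrr.L*, at 2 to 10 counts.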

Other observations

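Markers of other cells in the dissected brains were read beside the family. Of 18 oligodendrocyte copies, 5 fell in each CRISPant group and 4 of these were called, *mag.L*, *mag.S*, *cnp.L* and *cnp.S*, genes of myelinating cells, and none rose. Over all genes 22.8% fell and 20% rose in *ap3b2* CRISPants, and 21.4% fell and 18.8% rose in *eef1a2* CRISPants. The shares called lower were 5.11% and 5.24%. *mag.S* fell by 1.58 (adjusted p = 0.0042) in *ap3b2* and by 1.66 (adjusted p = 0.0078) in *eef1a2* CRISPants. Of 9 pericyte and mural copies tested, 5 fell in each group, with *pdgfrb.S*, a receptor of pericytes, at -0.94 (adjusted p = 0.0081) and -1.26 (adjusted p = 0.0078). Of 20 neuronal copies, 4 fell and 5 rose in *ap3b2* CRISPants and 3 fell and 4 rose in *eef1a2* CRISPants. These neuronal counts were near the shares of all genes. Of 17 radial glial copies 3 fell and 5 rose in *ap3b2* CRISPants, and 2 fell and 6 rose in *eef1a2* CRISPants. None of 4 microglial or leukocyte copies passed in either group by edgeR's test, with 0 at an unadjusted p below 0.05. Of 4 epidermal copies tested, the keratins *krt12.5.L* and *krt12.5.S* were called higher in both groups. They stood at 1.62 and 1.85 (adjusted p = 0.0346 and 0.0187) in *ap3b2* and 1.60 and 1.54 (adjusted p = 0.0109 and 0.0214) in *eef1a2* CRISPants. No other tested epidermal copy had an unadjusted p below 0.05 by edgeR's test. Over all genes 0.0769% and 0.0870% were called higher. The summed epidermal level overlapped between groups, at 164.2 to 226.0 CPM in controls, 179.0 to 235.3 CPM in *ap3b2* and 171.3 to 204.8 CPM in *eef1a2* CRISPants. Most of this sum came from *krt8.S* and *krt8.L*, with mean control levels of 106.7 and 74.0 CPM. *krt12.5.L* and *krt12.5.S* gave 2.38 and 1.33 CPM, so the sum hardly reflects them. *krt62.L* and *krt62.S* were not tested. They averaged 0.28 and 0.38 CPM in controls and reached up to 3.29 and 5.62 CPM in a library. None of 3 erythroid copies passed by edgeR's test, with 0 in *ap3b2* and 1 in *eef1a2* CRISPants at an unadjusted p below 0.05. Of 7 connective tissue and cartilage copies 1 fell in each group, and of 5 skeletal muscle copies 1 rose in each. The part of these cells in the levels of the bHLH-PAS genes was not tested.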
